A study of Sus scrofa with 18 samples.

Results

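NFIA, NFIB, NFIC and NFIX are the 4 genes of the nuclear factor I (NFI) family of transcription factors. They were taken by gene name from the gene table of fetal pig brain, 4 of 31908 genes, and none of the 4 was missing. The exon table held 94 of its 319124 exons for them, and the transcript table held 29 of its 63041 transcripts. RNA came from whole brains of fetuses whose dams were Landrace x Large White gilts and whose sires were LR-M6. Brains were collected with no treatment named on GD45, GD60 and GD90 (GD, gestation day). Each day had 3 females and 3 males, with 1 library for each fetus. Fetuses of 1 day whose labels gave the same litter size were taken as littermates, which made 3 litters of 1 female and 1 male on each day, and tests by litter summed the counts of both littermates. A whole brain mixes regions and cell types, so fewer cells of a type and less RNA per cell cannot be told apart in these values.

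NFI proteins bind DNA as dimers, through a conserved domain at the start of the protein, to a palindrome of TTGGC and its complement. In the embryonic brain NFIA and NFIB are known for the switch of radial glia from making neurons to making astrocytes, in which NFIA acts with SOX9, and both are needed for midline glia and the corpus callosum. NFIX is known for progenitor differentiation in the cortex, hippocampus and cerebellum, while NFIC is known best from tooth root formation.

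In the annotation on Sscrofa11.1, NFIA (ENSSSCG00000023243) lies at chr6:150835464-151426550 on the minus strand with 23 exons, and NFIB (ENSSSCG00000005190) at chr1:208175194-208421643 on the plus strand with 25. NFIC (ENSSSCG00000036537) lies at chr2:75193304-75297380 and NFIX (ENSSSCG00000013742) at chr2:65954244-66056567, both on the minus strand, with 21 and 25 exons.

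A coding exon that all 4 genes have is shown here because the exon results of NFIA and NFIB return to it. Each gene has an annotated exon of 532 bases, inside the RefSeq coding sequence, that codes for most of the DNA-binding domain. On Sscrofa11.1 it lies at chr6:151218169-151218700 (minus strand) in NFIA, chr1:208189592-208190123 (plus strand) in NFIB, chr2:75245621-75246152 (minus strand) in NFIC and chr2:66028179-66028710 (minus strand) in NFIX. Without gaps, 357 of the 532 bases (67.1%) were identical in all 4 genes. NFIC and NFIX were the closest pair with 86.3% identical bases, and NFIB and NFIC the most distant with 76.1%. Of the 175 positions that differed in at least 1 gene, 131 were at the last position of a codon, 32 at the first and 12 at the middle one. The first 150 bases of the exon follow, 5′ to 3′ on the coding strand, with capitals at the 37 positions that were not the same in all 4 genes.
NFIA (chr6:151218551-151218700): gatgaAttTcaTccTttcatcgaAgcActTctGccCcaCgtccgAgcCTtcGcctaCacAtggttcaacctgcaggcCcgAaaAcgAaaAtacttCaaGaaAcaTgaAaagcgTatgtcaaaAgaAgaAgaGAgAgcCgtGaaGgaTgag
NFIB (chr1:208189592-208189741): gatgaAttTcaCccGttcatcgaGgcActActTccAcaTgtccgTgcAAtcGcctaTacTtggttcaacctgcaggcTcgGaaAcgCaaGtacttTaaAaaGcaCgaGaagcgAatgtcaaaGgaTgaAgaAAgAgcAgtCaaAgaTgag
NFIC (chr2:75246003-75246152): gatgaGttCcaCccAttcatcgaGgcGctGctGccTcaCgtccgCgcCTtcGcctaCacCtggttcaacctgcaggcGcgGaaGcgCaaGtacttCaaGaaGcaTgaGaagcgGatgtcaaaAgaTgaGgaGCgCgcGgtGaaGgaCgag
NFIX (chr2:66028561-66028710): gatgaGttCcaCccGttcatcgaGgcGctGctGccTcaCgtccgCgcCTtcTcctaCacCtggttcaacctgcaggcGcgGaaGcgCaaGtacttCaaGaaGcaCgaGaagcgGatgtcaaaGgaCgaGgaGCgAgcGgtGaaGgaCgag
The longest run identical in all 4 genes was 17 bases, from base 61 to base 77 of the exon.

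Levels differed far more between the 4 genes than between the days. Per kilobase of annotated exon, NFIX had a median of 67.2 CPM (the count of a gene scaled to the total of its library, the usual CPM of RNA sequencing) over the 18 libraries, NFIB 9.30, NFIC 3.10 and NFIA 1.87. NFIX was above NFIB in 17 of the 18 libraries, NFIB was above NFIC in all 18, and NFIC was above NFIA in 15. NFIX alone held a median of 81.1% of the summed CPM per kilobase of the family (43.6% to 86.4%). This scale divides by all annotated exon bases, though 85.3% to 98.3% of the NFIX exon counts of a library fell in 1 exon of 4812 bases. The size of the gaps between genes therefore depends on how reads spread along each gene. The library labelled male GD45 replicate 17 was the exception to the first order, with 57.4 CPM per kilobase for NFIB and 46.3 for NFIX. The order of NFIC and NFIA was not stable from library to library, since NFIA was above NFIC in 1 library on each day.

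Gene table totals ranged from 15118843 to 19729783 counts a library, and the members had 47 to 502 counts a library for NFIA, 321 to 3804 for NFIB, 324 to 766 for NFIC and 4712 to 10581 for NFIX. Libraries also differed in how reads spread along transcripts. The last-exon share, which is the median percent of a gene's exon counts that fell in its last exon over 1814 genes with 1 annotated transcript, ran from 40.2% to 65.4%. It was 40.2% to 42.4% in the 3 male GD90 libraries, and the highest value was in male GD45 replicate 17. Listed markers of neurons, astrocytes, oligodendrocyte precursors and oligodendrocytes that were in the table were each detected. Summed astrocyte markers (10 of 11 listed genes were in the table, none at 0 in every library) ran from 699 to 1363 CPM at GD45, 1111 to 1539 at GD60 and 3216 to 3813 at GD90. Summed erythroid markers (4 of 4 in the table) fell in the other order, from 265 to 669 CPM at GD45 to 94.6 to 173 at GD90, and their part in the NFI values was not tested.

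**Figure D1:**
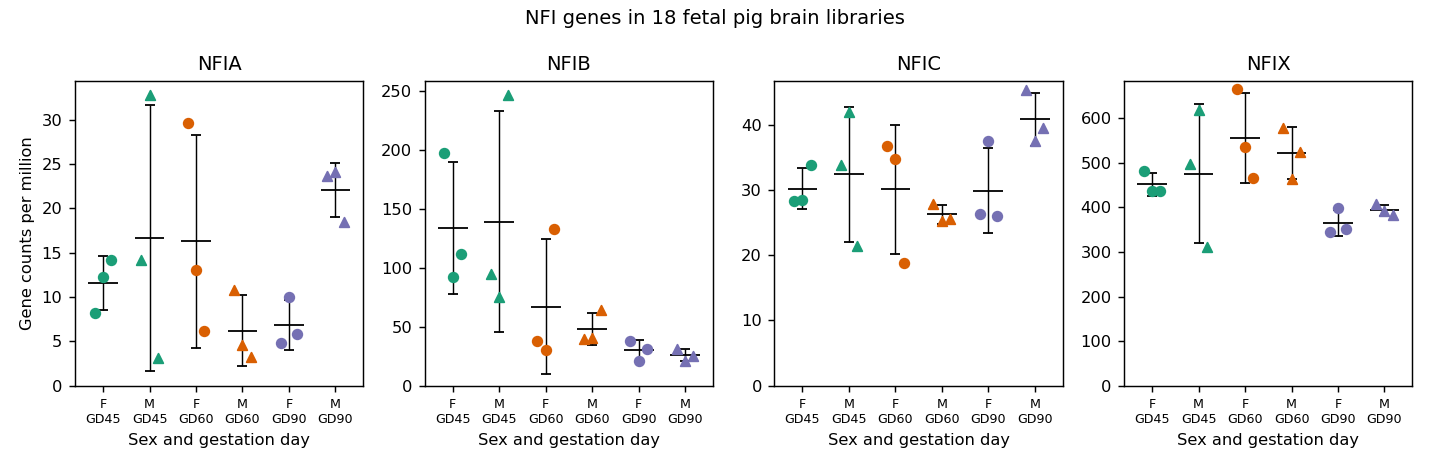
CPM of each NFI gene in the 18 libraries, by sex and gestation day, with linear axes from 0, points for single fetuses (circles females, triangles males) and lines for the group mean ± SD (n = 3). By group mean NFIB is highest at GD45 and NFIX lowest at GD90, though the lowest single NFIX value is in male GD45 replicate 17. NFIA is high in the 3 male GD90 libraries.

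NFIB, a driver of gliogenesis and of neuronal maturation, fell from GD45 to GD90. In females it was 198, 92.2 and 112 CPM at GD45 (replicates 12, 13 and 18), 37.7, 30.3 and 133 CPM at GD60 (replicates 3, 5 and 15) and 37.7, 20.7 and 31.4 CPM at GD90 (replicates 2, 7 and 9). In males it was 95, 75.7 and 247 CPM at GD45 (replicates 11, 14 and 17), 39.5, 40.6 and 64.0 CPM at GD60 (replicates 4, 6 and 16) and 31.4, 21.2 and 25.0 CPM at GD90 (replicates 1, 8 and 10). All 6 libraries of GD45 were above all 6 of GD90, while at GD60 female replicate 15 lay among the GD45 libraries. The share of all genes or exons whose libraries separated in this way was not counted, here or for the members below. Summed by litter, NFIB was 137 ± 47.5 CPM at GD45, 58.6 ± 37.1 at GD60 and 27.9 ± 6.86 at GD90 (SD, n = 3 litters).

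The fall of NFIB over the whole period was called by edgeR's quasi-likelihood test on litters (log2 fold change -2.27 ± 0.43 SE, adjusted p = 0.001), a comparison in which 53.3% of all genes tested were called. This comparison was added after the values were seen. Neither step alone passed in this fit. From GD45 to GD60 the change was -1.19 ± 0.41 (adjusted p = 0.087, against 11.6% of genes called) and from GD60 to GD90 it was -1.08 ± 0.41 (adjusted p = 0.062, against 37.4%). Both steps were called by edgeR's likelihood ratio test (adjusted p = 0.03 and 0.026), without a filter on low counts (0.019 and 0.014) and with the mean of both sexes over 18 libraries (0.033 and 0.047). The fit over 18 libraries takes littermates as separate replicates. Neither step was called by DESeq2, without TMM factors or with a filter on CPM. Leaving out the GD60 litter of 8, which holds female replicate 15, moved the first step to -1.92, which was called, and the second to -0.34. The first step was also called without the GD45 litter of 17 (-1.45), and the second without that litter (-1.08), the GD60 litter of 13 (-1.32) or that of 15 (-1.35). Within each sex no step was called either in the model of 6 groups of sex and day. The log2 fold changes were -0.95 ± 0.55 in females and -1.63 ± 0.56 in males from GD45 to GD60 and -1.11 ± 0.56 and -0.93 ± 0.56 from GD60 to GD90 (adjusted p = 0.11 to 0.34). The same test fitted to only the 6 libraries compared called the male step from GD60 to GD90 (-0.93, adjusted p = 0.0046), where 7354 of 15512 genes were called. Without female GD60 replicate 15 the female values were -2.01, which was called, and -0.06, and without male GD45 replicate 17 the first male value was -0.76.

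NFIB also moved with the last-exon share. In the model of 6 groups its level was higher by 1.22 ± 0.13 on the log2 scale for each 10 points of last-exon share (adjusted p = 8.5e-07), a slope that was called for 42.7% of all genes. The last-exon share, averaged over littermates, was 48.9% to 58.5% at GD45, 46.4% to 53.8% at GD60 and 42.5% to 48.9% at GD90. With the share as a covariate, NFIB was still lower at GD90 than at GD45, by a smaller amount (-1.15 ± 0.24, adjusted p = 0.0016, against 45.4% of genes called), and the step from GD45 to GD60 was called (-0.74 ± 0.19, adjusted p = 0.017, against 16.8%). The step from GD60 to GD90 by litter was not called (-0.42 ± 0.20, adjusted p = 0.12, against 42.1%). In males the change from GD60 to GD90 became 0.25 ± 0.25 with the covariate (adjusted p = 0.49), the opposite sign, while in females it became -1.16 ± 0.22 (adjusted p = 0.0004). The share was 50.15% to 51.43% in the male GD60 libraries and 40.25% to 42.4% in the male GD90 libraries, without overlap. In males the share and this step therefore cannot be told apart, for NFIB or for the other members.

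**Figure D2:**
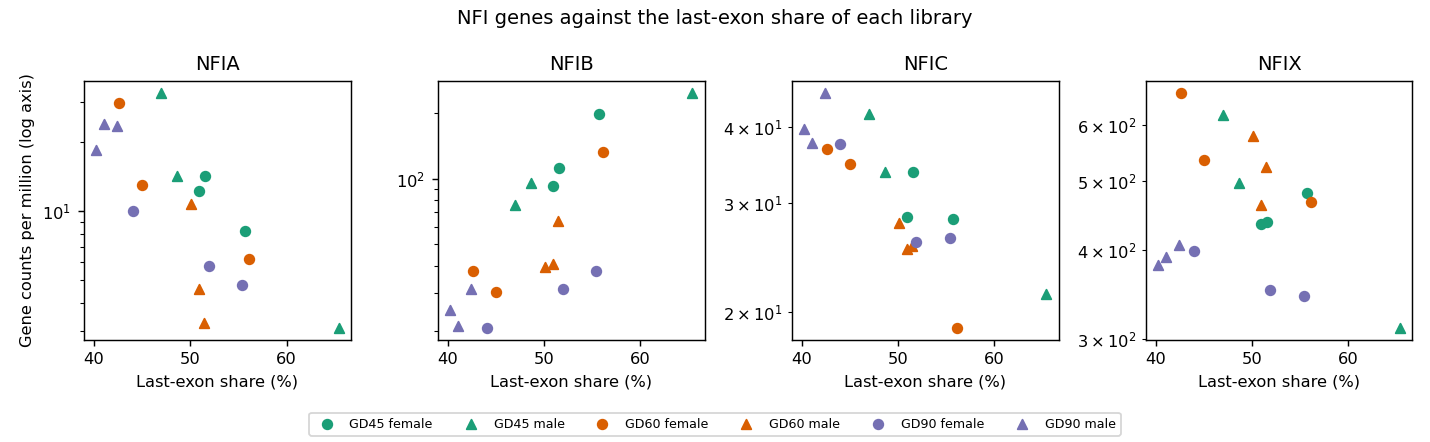
CPM (log axis) of each NFI gene against the last-exon share of the library in percent, with 1 point a library, colours for gestation day and shapes for sex. NFIB is higher and NFIA lower in libraries with a higher share, and the NFIX points of GD90 sit below those of GD60 at like shares.

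The exons of NFIB gave the same direction inside the gene. The 532-base exon is part of all 7 annotated transcripts of NFIB and overlaps no other annotated exon. Its level was 33.8, 23.8 and 23.6 CPM of the exon table in the 3 female GD45 libraries, taken from highest to lowest, and 11.8 to 22.6 in the males. At GD90 it was 5.08 to 5.68 in females and 5.45 to 8.46 in males, with no overlap between the days. In male GD45 replicate 17, which had the highest NFIB CPM of all libraries, this exon held 85 counts, the lowest of the 6 GD45 libraries, and the exon table placed only 6.30% of the NFIB gene counts on its listed exons, against 13.1% to 23.8% in the other 17 libraries.

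By litter, all 7 NFIB exons that passed the filter were called lower at GD90 than at GD45, with log2 fold changes from -3.09 to -1.72, where 29.4% of all exons tested were called. The 532-base exon changed by -1.99 ± 0.31 (adjusted p = 0.00016) and kept its call with the last-exon share as a covariate (-1.58 ± 0.28, adjusted p = 0.00013); 4 of the 7 exons did so, against 17.8% of all exons. An exon of 41 bases at chr1:208191117-208191157, annotated only in transcript NFIB-202, had the steepest fall, -3.09 ± 0.48 (adjusted p = 0.00017), and was also the NFIB exon called from GD60 to GD90 (-2.11 ± 0.51, adjusted p = 0.013, against 11.1% of exons). From GD45 to GD60 no NFI exon was called by litter (lowest adjusted p = 0.073), against 1.45% of exons. NFIB-202 had at most 23 counts in a library, the same reads as that exon, and its litter levels were 2.41 to 3.40 CPM of the transcript table at GD45, 1.24 to 2.03 at GD60 and 0.209 to 0.555 at GD90.

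**Figure D3:**
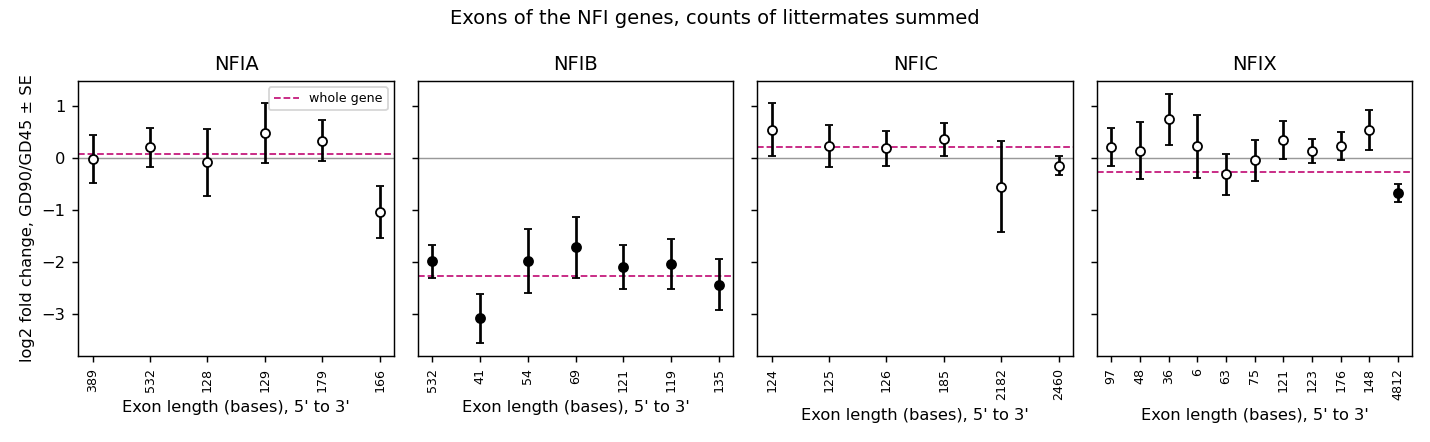
Log2 fold change ± SE from GD45 to GD90 by litter for each NFI exon that passed the filter, in order from 5′ to 3′ and labelled by exon length in bases, with filled points for exons called and a dashed line for the whole gene. All 7 NFIB exons are filled and below 0, and in NFIX the 4812-base terminal exon is the filled point.

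NFIX, the most abundant member, fell from GD60 to GD90 in both sexes. In females it was 481, 436 and 438 CPM at GD45, 666, 535 and 467 CPM at GD60 and 345, 399 and 352 CPM at GD90. In males it was 497, 619.5 and 311 CPM at GD45, 579, 463 and 524 CPM at GD60 and 407, 391 and 382 CPM at GD90. All 6 libraries of GD90 were below all 6 of GD60, whereas GD45 spanned both, with male replicate 17 lowest of all. The log2 fold change from GD60 to GD90 was -0.51 ± 0.15 in females (adjusted p = 0.019, against 27.1% of genes called) and -0.43 ± 0.15 in males (adjusted p = 0.040, against 34.5%).

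By litter NFIX went from 537 ± 73.0 CPM at GD60 to 379 ± 14.4 at GD90 (SD, n = 3 litters; log2 fold change -0.48 ± 0.12, adjusted p = 0.01). With the last-exon share as a covariate the change was -0.58 ± 0.09 (adjusted p = 0.00037, against 42.1% of genes), and within the sexes -0.45 ± 0.11 in females (against 38.9%) and -0.66 ± 0.13 in males (against 29.9%). Leaving out single libraries lost the call in 3 of 18 cases in females and 7 of 18 in males, with the value from -0.59 to -0.39 in females and from -0.51 to -0.39 in males. By litter the call was lost without the GD90 litter of 18 (-0.43). The change from GD45 to GD60 was not called in either sex (0.31 ± 0.15 in females, 0.13 ± 0.15 in males, adjusted p = 0.25 and 0.71).

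Most NFIX reads in the exon table came from 1 exon, the terminal exon of 4812 bases at chr2:65954244-65959055, which holds the 3′ end of the gene. It took 85.3% to 98.3% of the NFIX exon counts of a library. By litter its level was 481 to 607 CPM of the exon table at GD45, 553 to 643 at GD60 and 367 to 399 at GD90, with GD90 below both other days. It was called lower at GD90 than at GD60 (-0.72 ± 0.17, adjusted p = 0.013) and than at GD45 (-0.67 ± 0.17, adjusted p = 0.0077). The other 10 NFIX exons tested by litter were not called in either comparison, with log2 fold changes from -0.31 to 0.75 from GD45 to GD90. From GD60 to GD90 within the sexes, the 9 NFIX exons tested had a median log2 fold change of -0.60 in females (-1.31 to -0.26). In males the median was 0.13 (-1.01 to 0.75), so the male fall of the gene was not seen in most of its exons. Transcript NFIX-201 fell from GD60 to GD90 (-0.54 ± 0.13, adjusted p = 0.011), but its 2506 to 5916 counts a library are those of the terminal exon and are no second measurement. That exon overlaps LYL1 on the other strand, a gene with 2.11 to 4.74 CPM in these libraries; the sources used here do not state whether counting used the strand.

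The test of exon usage, which asks whether an exon changes unlike the rest of its gene, called no NFI exon. By litter the lowest adjusted p was 0.13, for NFIX from GD45 to GD90, where 1.86% of all exons were called, and 0.0328% and 0.103% were called for GD45 to GD60 and GD60 to GD90. Within the sexes none of the 23 NFI exons tested had a usage call, against 0.00781% and 0% of all exons in females and males from GD45 to GD60 and 0.0417% and 0.0599% from GD60 to GD90. Without male GD45 replicate 17, 1 NFI exon had a usage call in males from GD60 to GD90. A fall of the NFIX terminal exon apart from the other NFIX exons was therefore not shown. The 532-base exon could not serve in NFIX and NFIC: it shares bases with an overlapping exon of another transcript and had 0 counts in every library in NFIX and 0 to 4 in NFIC.

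NFIA, the family member best known for the onset of gliogenesis, was high in the 3 male GD90 libraries. In females it was 8.17, 12.3 and 14.2 CPM at GD45, 29.6, 13.0 and 6.18 CPM at GD60 and 4.76, 10.0 and 5.77 CPM at GD90. In males it was 14.2, 32.8 and 3.10 CPM at GD45, 10.8, 4.57 and 3.26 CPM at GD60 and 23.6, 24.1 and 18.5 CPM at GD90. At GD90 all 3 males were above all 3 females, and in males all of GD90 lay above all of GD60. Between the sexes at GD90, 2213 of 16325 genes had an unadjusted p under 0.05 in edgeR's quasi-likelihood test. The highest NFIA value of the series, however, was in male GD45 replicate 14.

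NFIA rose from GD60 to GD90 in males (log2 fold change 1.83 ± 0.62, adjusted p = 0.03) and was lower in females by a difference that did not pass (-1.14 ± 0.61, adjusted p = 0.18). The difference between the sexes in this change was 2.97 ± 0.87, with adjusted p = 0.18, and that between males and females at GD90 was 1.63 ± 0.61, with adjusted p = 0.35. The interaction was called for NFIA without the GD45 litter of 8 (2.95, adjusted p = 0.023), a fit that called 2104 of 16578 genes, and the difference at GD90 was called when the 6 GD90 libraries were fitted alone (1.64, adjusted p = 0.045), a fit that called 1062 of 15427 genes. The male rise lost its call without male GD60 replicate 6 (1.66) or 16 (1.55) or male GD90 replicate 1 (1.78) or 8 (1.74). The 3 male GD90 libraries were also those with the lowest last-exon shares. NFIA was lower by 1.38 ± 0.21 on the log2 scale for each 10 points of that share (adjusted p = 3.5e-05), and with it as a covariate the male rise was 0.54 ± 0.36 (adjusted p = 0.29).

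By litter NFIA was 13.9 ± 6.93 CPM at GD45, 11.1 ± 7.90 at GD60 and 14.4 ± 2.61 at GD90 (SD, n = 3 litters), and the litters of the 3 days overlapped. Its log2 fold changes were -0.34 ± 0.43 from GD45 to GD60, 0.42 ± 0.43 from GD60 to GD90 and 0.08 ± 0.43 over the whole period (adjusted p = 0.47 to 0.88). Without the GD60 litter of 13 the second value was 1.12 and called. In males the change from GD45 to GD60 was -1.40 ± 0.61 (adjusted p = 0.23) and was called without male GD45 replicate 17 (-1.87). The covariate left the whole-period change at -0.83 ± 0.34 (adjusted p = 0.062) and called a fall from GD45 to GD60 in males (-1.40 ± 0.32, adjusted p = 0.0073). The 532-base exon, part of all 9 NFIA transcripts, held 5 to 72 counts a library. It was called higher at GD90 than at GD60 in males (1.93, adjusted p = 0.028), as was the 179-base exon at chr6:150890954-150891132 (1.88, adjusted p = 0.046), which left 2 of 5 NFIA exons called against 8.61% of all exons. With the last-exon share as a covariate neither kept its call (1.05, adjusted p = 0.17, and 1.70, adjusted p = 0.13), and 0 of the 5 NFIA exons were called.

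NFIC had a narrow range, from 18.8 to 45.4 CPM over all 18 libraries. In females it was 28.3, 28.5 and 33.8 CPM at GD45, 36.8, 34.8 and 18.8 CPM at GD60 and 26.3, 37.5 and 26 CPM at GD90. In males it was 33.8, 42.0 and 21.4 CPM at GD45, 27.9, 25.3 and 25.6 CPM at GD60 and 45.4, 37.6 and 39.6 CPM at GD90. The male GD90 libraries were all above the male GD60 libraries, while the female days overlapped. NFIC rose from GD60 to GD90 in males (0.62 ± 0.21, adjusted p = 0.03) and by litter, from 28 ± 5.43 to 35.3 ± 2.45 CPM (SD, n = 3 litters; 0.37 ± 0.13, adjusted p = 0.044), and the female value was 0.09 ± 0.21 (adjusted p = 0.78).

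The NFIC calls rested close to the threshold. NFIC was lower by 0.41 ± 0.08 for each 10 points of last-exon share (adjusted p = 0.00038), and with this covariate the change from GD60 to GD90 was 0.23 ± 0.15 in males (adjusted p = 0.26) and 0.26 ± 0.10 by litter (adjusted p = 0.053). Leaving out any of the 6 male libraries of GD60 and GD90 also lost the male call, with values from 0.54 to 0.65, and the call by litter was lost without any 1 of 5 litters (0.25 without the GD60 litter of 8). Transcript NFIC-202 was called higher by litter (0.40 ± 0.13, adjusted p = 0.047), from 46.6 to 64.9 CPM of the transcript table at GD60 to 65.5 to 73.1 at GD90. Its counts are those of the 2460-base terminal exon (243 to 448 a library in both tables), and neither it nor another of the 6 NFIC exons tested by litter was called as an exon.

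**Figure D4:**
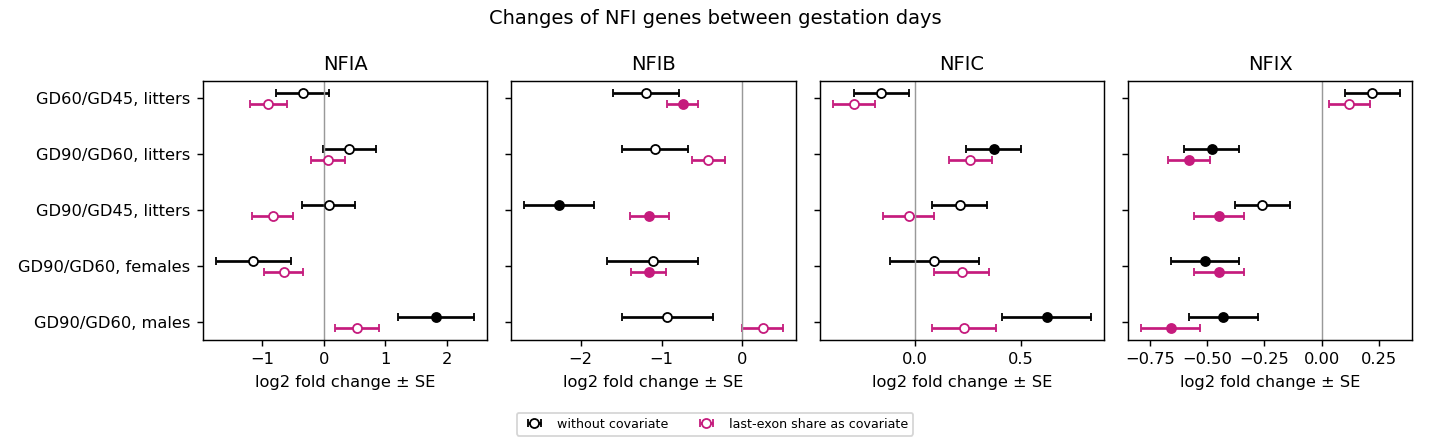
Log2 fold change ± SE of each NFI gene for 5 comparisons, without (black) and with (magenta) the last-exon share as a covariate, with filled points where the adjusted p passed 0.05. The NFIX falls from GD60 to GD90 stay filled in both fits, as does the NFIB fall from GD45 to GD90, and the NFIA and NFIC rises in males do not.

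Counted over the family, 0 of 4 members were called from GD45 to GD60 in females (against 7.22% of genes) or in males (against 5.61%). In females and males 0 and 2 members had an unadjusted p under 0.05, where 3500 and 2960 of 16325 genes had one. From GD60 to GD90, 1 of 4 was called in females (NFIX, against 27.1% of genes) and 3 of 4 in males (NFIA, NFIC and NFIX, against 34.5%). By litter 0, 2 (NFIC and NFIX) and 1 (NFIB) were called from GD45 to GD60, GD60 to GD90 and GD45 to GD90, against 11.6%, 37.4% and 53.3% of genes. Between the sexes 0 of 4 were called on any day, where 0.0919%, 0.0980% and 0.0980% of genes were called at GD45, GD60 and GD90. On these days 0, 1 (NFIA) and 1 (NFIA) had an unadjusted p under 0.05, where 423, 784 and 2213 of 16325 genes had one. The likelihood ratio test and DESeq2 also called 0 members between the sexes. The interaction of sex and period called 0 of 16325 genes (0%) in either period by edgeR's quasi-likelihood test. By edgeR's quasi-likelihood test 333 and 3232 genes had an unadjusted p under 0.05, and NFIA was among them in both periods. DESeq2 called 0 and 268 genes and edgeR's likelihood ratio test 0 and 129, and none of these called genes was a member.

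Of the 94 NFI exons, 36 had no count in any library, and 23 passed the filter within the sexes (5 of NFIA, 5 of NFIB, 4 of NFIC and 9 of NFIX). None of the 23 was called from GD45 to GD60, against 0.162% of all exons in females and 0.0262% in males, nor in females from GD60 to GD90, against 3.63%. In males 3 of the 23 were called from GD60 to GD90, against 8.61% of all exons. They were both NFIA exons above and the NFIX terminal exon (-1.01, adjusted p = 0.0098). None of them was called without male GD60 replicate 16, male GD90 replicate 8 or male GD90 replicate 10. Of the 29 transcripts 6 passed, and only NFIX-201 was called, in males from GD60 to GD90, where 18.7% of all transcripts were called, against 2.17%, 1.56% and 12.9% in the other 3 comparisons (females and males from GD45 to GD60, and females from GD60 to GD90). By litter 8 transcripts passed. None was called from GD45 to GD60 (against 4.20%), 3 were called from GD60 to GD90 (against 20.0%), and 2, NFIB-202 and NFIX-201, from GD45 to GD90 (against 36.8%).

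The genes whose profile was most like a member's were ranked by the root mean square difference of centred log2 CPM over the 18 libraries, among 12808 other genes with a symbol and at least 1 CPM on average. For NFIB these were S100A11 (difference 0.43), the kinetochore genes SKA1 (0.45) and SPC24 (0.46), CDCA3 (0.47) and the replication gene GINS4 (0.47), where the median gene differed by 1.11. For NFIA they were LRP6 (0.38), BBX (0.39), PROX1 (0.42), ZBTB33 (0.42) and NPAS3 (0.43), against a median of 1.04. NFIX had ZBTB18 (0.10), SLAIN2 (0.11), PLCB3 (0.13), TLE4 (0.13) and ZNF41 (0.13) as its nearest, against 0.43, and NFIC had LAMC1, ATXN1L, AMOTL1 and PRMT6 among its nearest (0.15 to 0.16), against 0.47. These are descriptions over libraries that also share the last-exon share.

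Other factors of the switch to gliogenesis moved in both directions from GD60 to GD90. From GD60 to GD90 by litter, 6 of the 14 tested factors rose and 2 fell, where 37.4% of all genes were called, with a median log2 fold change of 0.12 against -0.02 over all genes. SOX10, which specifies oligodendrocyte lineage cells, rose most, from 28.9 to 32.6 CPM at GD60 to 85.7 to 109 at GD90 (1.68 ± 0.16, adjusted p = 2e-05), and OLIG1, with the same lineage, rose by 0.88 ± 0.13 (adjusted p = 0.00037). HES5, a Notch effector of radial glia, fell by 0.73 on the log2 scale (adjusted p = 0.047), and the receptor NOTCH1 fell by 0.39 (adjusted p = 0.036). From GD45 to GD60 4 rose and 3 fell (against 11.6% of genes called), and over the whole period 5 rose and 5 fell (against 53.3%).

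Genes known as NFI targets in the brain split as well. Of the 15 tested, 7 rose and 3 fell from GD60 to GD90 (median 0.32), 2 rose and 4 fell from GD45 to GD60 (median -0.21), and 6 rose and 7 fell over the whole period, against 37.4%, 11.6% and 53.3% of all genes called. GFAP, the astrocyte filament gene, rose from 17.6 to 48.1 CPM at GD45 through 115 to 143 at GD60 to 642 to 885 at GD90 (4.46 ± 0.30 over the whole period, adjusted p = 7.3e-07). EZH2, a Polycomb methyltransferase that NFIB is known to repress, fell from 76.4 to 82.2 CPM to 11.0 to 12.4 (-2.70 ± 0.10, adjusted p = 2.5e-08), in the same direction as NFIB itself. FABP7, a radial glia fatty acid binding protein, fell by 0.50 (adjusted p = 0.033).

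Most of the radial glia and progenitor genes tested were called lower over the days. Of the 10 tested, 7 fell and 0 rose from GD45 to GD60 (median -0.87), 7 fell and 1 rose from GD60 to GD90 (median -0.69), and 9 fell and 1 rose over the whole period (median -1.45), against 11.6%, 37.4% and 53.3% of all genes called in either direction. EOMES, of intermediate progenitors, fell most, from 63.3 to 69.6 CPM at GD45 through 15.4 to 23.1 at GD60 to 0.491 to 3.91 at GD90 (-5.17 ± 0.51, adjusted p = 9.7e-06). VIM, an intermediate filament of radial glia, fell by 1.08 (adjusted p = 2.8e-05), and SLC1A3, a glutamate transporter of radial glia and astrocytes, was the gene that rose (1.26 ± 0.10, adjusted p = 2.5e-06). The members of these 3 lists overlap in part (HES1, HES5, SOX9, FABP7 and SLC1A3 are each in more than 1).

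The letters of the NFI palindrome were looked for in promoter windows of 300 bases, 250 before and 50 after the RefSeq start on Sscrofa11.1. TTGGC, any 5 bases and GCCAA occurred in 0 of the 4 NFI windows and 0 of the 16 target windows, and in 0.0435% of 20667 windows of all protein-coding genes. The letters TTGGC on either strand occurred in 1 of the 4 NFI windows, NFIA with 2 matches, in 10 of the 16 target windows (62.5%) and in 45.0% of all windows.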

How the data were processed

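Poly-A RNA of 18 whole fetal brains was sequenced as paired ends. Per the labels and the study's methods, the authors used FastQC, Trimmomatic, HISAT2 on Sscrofa11.1 and featureCounts on an Ensembl annotation, and deposited raw counts per gene, exon and transcript, not normalized. Options for strand, multiple matches and overlapping features are not given in the sources used here, so reads on overlapping exons are uncertain. The deposited feature lengths are in bases and of unit other. The tables hold 22 columns for 18 libraries, since 4 libraries had 2 runs each, whose counts were summed. The gene table held 15118843 to 19729783 counts a library, that of exons held 6988796 to 9214794 and that of transcripts held 4566025 to 6196886. Reads carry no molecular identifiers, so counting error is a lower limit, and nothing but the litter sizes ties fetuses to dams.

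CPM are counts over the library total, and log2 values used a prior count of 2. Genes (16325 by library, 17003 by litter), exons (80134 and 91617) and transcripts (12966 and 14393) that passed filterByExpr were fitted with TMM factors and the quasi-likelihood F test of edgeR 4.0.16 in R 4.3.3, with Benjamini-Hochberg adjustment over all features and a threshold of 0.05. One model held 6 groups of sex and day, and another 3 days with 9 litters. Exon usage was tested with diffSpliceDGE. The last-exon share used genes with 1 transcript, at least 5 exons and at least 50 counts in every library, and it, the comparison of GD90 with GD45 and the exon and transcript fits by litter were added after the data were seen. Alternatives included DESeq2 1.42.0, the likelihood ratio test, other filters and scaling, litter as a block, and leaving out libraries or litters. The fits were tested on simulated counts. Members, gene lists and the rule for named genes (every member, 5 most alike genes each, and up to 4 a list: the largest called rise and fall from GD60 to GD90 and the highest 2 by CPM) were chosen with earlier results of these data known. Sequences are from the RefSeq assembly of Sscrofa11.1. Protein sequences were not used here, and 1 gene that the rule names is not reported here.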

Additional observations from a re-analysis of the deposited data

How the results depend on the processing

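The fall of NFIX from GD60 to GD90 and the fall of NFIB from GD45 to GD90 by litter kept their direction under every alternative run. No value called in the main fits changed sign. Values not called in the main fits did change sign with the last-exon share as a covariate, among them NFIB in males from GD60 to GD90 (0.25), NFIA in females from GD45 to GD60 (-0.36), and NFIA (-0.83) and NFIC (-0.03) from GD45 to GD90 by litter. That male NFIB step was called when only the 6 libraries compared were fitted (-0.93). With the last-exon share as a covariate, chosen after seeing the data, members called became 2 of 4 from GD45 to GD60 in males. The share of all genes called in that comparison is not set beside this count, so it is no result about NFI alone. From GD60 to GD90 they became 2 in females (against 38.9% of all genes) and 1 in males (against 29.9%). By litter they became 1, 1 and 2 for GD45 to GD60, GD60 to GD90 and GD45 to GD90, against 16.8%, 42.1% and 45.4% of all genes. NFI exons called became 1, 2 and 5 (females and males from GD45 to GD60, females from GD60 to GD90) and, by litter, 3 and 5 (GD45 to GD60 and GD60 to GD90), and in males from GD60 to GD90 4, all of NFIX, in place of 3, and transcripts called 1 in females and 2 in males from GD60 to GD90. The values that lost their call with it were NFIA at 0.54 and NFIC at 0.23 in males and NFIC at 0.26 by litter. In males from GD60 to GD90 the share and the day cannot be told apart. The shares of all exons and transcripts called with this covariate are not set beside the counts above, so those counts are no result about NFI alone. Library size without TMM factors gave 1 member called from GD60 to GD90 in males and by litter, and 1 transcript in females. There NFIC at 0.64 and 0.34 and NFIX in males at -0.41 lost their calls. In males from GD60 to GD90 that fit called 5462 of 16325 genes, and the shares for the count by litter and the transcript are not given. Without a filter, NFIX in males (-0.43, adjusted p = 0.057) and NFIC by litter (0.35, adjusted p = 0.062) lost their calls in edgeR's quasi-likelihood test. The mean of both sexes over 18 libraries also lost the NFIC call (0.35, adjusted p = 0.062 by the same test). From GD45 to GD60 by litter, 1 member was called by the likelihood ratio test, without a filter and with the mean of both sexes. The shares of all genes called in those fits are not set beside this count, so it is no result about NFI alone. In males 1 was called by the likelihood ratio test (against 1174 of 16325 genes) and without the GD45 litter of 8 (against 1550 of 16578). That litter's omission called 1 member for the interaction from GD60 to GD90 (against 2104 of 16578 genes). Fitting only the 6 libraries of GD90 called 1 member between the sexes (against 1062 of 15427).

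Leaving out 1 library at a time gave 0 to 1 members called from GD45 to GD60 in each sex, 0 to 1 in females and 0 to 3 in males from GD60 to GD90, and 0 to 1 for the interaction from GD60 to GD90. By litter the ranges were 0 to 1, 1 to 4 and 1 to 2. For single members from GD60 to GD90 they were 1.55 to 2.44 (NFIA, males), 0.54 to 0.65 (NFIC, males), -0.51 to -0.39 (NFIX, males), -0.59 to -0.39 (NFIX, females), 0.25 to 0.45 (NFIC by litter) and -0.54 to -0.39 (NFIX by litter). Exons called ran from 0 to 3 in females from GD45 to GD60, 0 to 2 in females and 0 to 4 in males from GD60 to GD90, usage calls in males from 0 to 1 and transcripts in males from 1 to 2. Calls over all genes moved too. Without male GD45 replicate 17, 2329 of 16631 genes were called from GD45 to GD60 in females, against 1178 of 16325. Litter as a replicate block changed no call of a member between the sexes, where NFIA at GD90 was 1.68. The causes were not tested. NFIA rests on 47 to 502 counts a library. Its SE within the sexes (0.59 to 0.62) was close to that of NFIB (0.55 to 0.56), which has 321 to 3804 counts.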
